A study of Mus musculus with 7 samples.

Results

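*Aire* and 8 genes whose products are known to act with or on the Aire protein in the nucleus were followed through 7 single-cell RNA-seq libraries of mouse thymic epithelial cells. The 9 genes are *Aire*, *Hdac3*, *Prkdc*, *Top1*, *Chd4*, *Prmt5*, *Parp1*, *Sirt1* and *Mbd1*, out of 20839 genes listed in any library and 14052 listed in all of them. The list was made by name, with earlier results of these data known, and all 9 are listed in every library. Cells were placed in classes by their deposited *Aire* value, the natural log of 1 plus its unique molecular identifiers (UMIs, the tags by which captured RNA molecules are counted) per 10000 UMIs of the cell. The classes are *Aire* 0, *Aire* above 0 and up to 1.5, and *Aire* above 1.5, with cells of *Ccl21a* above 4 as a further class. *Ccl21a* encodes a chemokine that draws thymocytes into the medulla.

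Every library was made from EpCAM+ CD45- cells of 3 pooled thymi of C57BL/6 mice and therefore counts as 1 sample. The lineage tracing mice carried Aire-CreERT2 and the R26-CAG-Stopfl-zsGreen reporter, were 6 weeks old and had received tamoxifen (2 mg a dose, on alternate days over 10 days). In these mice Cre is made under the control of *Aire*, so that cells with *Aire* while tamoxifen is present, and their descendants, are labelled with ZsGreen. The other 6 libraries came from mice given 100 µg of antibody, 3 times in 1 week. Of these, 2 were isotype controls, collected at week 2 (4 weeks of age) and week 10 (12 weeks of age). The 4 others received anti-RANKL, an antibody that blocks the cytokine needed for *Aire*-positive medullary cells to form, and were collected at week 2, 4, 6 or 10, at 4, 6, 8 or 12 weeks of age. Each time point after anti-RANKL has a single library, so no test between conditions was made, and the SD over both isotype controls is the sole measure of spread between libraries of 1 treatment.

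The libraries held 8453 cells and 89007173 UMIs, with a median of 4299.5 to 16809 UMIs per cell. *Epcam*, the gene of the sorted surface protein, was detected in 76% to 97.5% of the cells of each library. Pairs of libraries shared at most 7 cell barcodes. At least 6 of 12 T-cell markers were found in 78 cells, although CD45+ cells had been sorted out. *Aire* was present in 1 of the 18 such cells with at most 1 of 6 epithelial markers (1 UMI of 94501, median depth between 1686 and 8001 UMIs) and in 29 of the 60 with more of them (median depth between 5239 and 37439 UMIs).

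Aire is a nuclear protein that lets medullary thymic epithelial cells (mTECs) transcribe genes otherwise restricted to single peripheral tissues, so that developing T cells can be tested against their products. It binds chromatin and works with a large set of partners. Among the members, *Prkdc* encodes the catalytic subunit of DNA-dependent protein kinase and *Parp1* an ADP-ribose polymerase, both sensors of DNA breaks, and *Top1* encodes the topoisomerase that relaxes DNA by cutting a single strand. *Chd4* encodes the ATPase of the nucleosome remodelling and deacetylase (NuRD) complex, *Hdac3* the deacetylase of the NCoR and SMRT corepressor complexes, and *Mbd1* a reader of methylated CpG. *Sirt1* encodes an NAD-dependent deacetylase that removes acetyl groups from Aire, and *Prmt5* an arginine methyltransferase.

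In the GENCODE vM21 annotation of GRCm38/mm10, *Aire* lies on chromosome 10 at 78030022 to 78043610 on the minus strand, and *Sirt1* lies on the same chromosome and strand at 63319005 to 63381704, an interval that holds the RefSeq start used below. *Top1* lies on chromosome 2 at 160645888 to 160722764 on the plus strand. Each of the 9 is annotated as protein coding, and none shares exonic bases on its own strand with another protein-coding gene. On the other strand, 67 exonic bases of *Aire* overlap *Dnmt3l* and 65 of *Sirt1* overlap the antisense gene *Gm16145*. The 250 bases upstream of the RefSeq start of the 3 members with the clearest pattern below are given from 5′ to 3′, from RefSeq tables of GRCm38.p6. Capitals mark 4 motifs searched on both strands, the E-box CACGTG, the TATA box TATAAA, the CCAAT box CCAAT and the GC box GGGCGG; they may overlap each other.
*Aire*, chr10:78043611-78043860, minus strand: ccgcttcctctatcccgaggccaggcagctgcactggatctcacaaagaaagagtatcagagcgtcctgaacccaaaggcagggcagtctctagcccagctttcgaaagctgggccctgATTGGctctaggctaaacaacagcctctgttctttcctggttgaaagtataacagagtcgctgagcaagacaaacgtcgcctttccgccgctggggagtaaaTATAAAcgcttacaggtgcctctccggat
*Sirt1*, chr10:63339036-63339285, minus strand: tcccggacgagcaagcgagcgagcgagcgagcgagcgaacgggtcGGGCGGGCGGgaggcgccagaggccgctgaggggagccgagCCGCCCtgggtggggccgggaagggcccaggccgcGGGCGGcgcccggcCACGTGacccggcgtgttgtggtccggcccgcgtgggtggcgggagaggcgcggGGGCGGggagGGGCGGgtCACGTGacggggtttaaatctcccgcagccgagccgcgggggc
*Top1*, chr2:160645647-160645896, plus strand: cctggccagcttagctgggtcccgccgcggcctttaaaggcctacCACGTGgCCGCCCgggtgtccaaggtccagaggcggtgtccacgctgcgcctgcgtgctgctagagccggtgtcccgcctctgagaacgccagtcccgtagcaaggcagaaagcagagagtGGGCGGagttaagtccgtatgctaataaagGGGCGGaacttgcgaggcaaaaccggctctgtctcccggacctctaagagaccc

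The *Aire* window holds 1 TATA box, from base -29 to -24 before the start, and 1 CCAAT box on the opposite strand, with 11 CpG and a GC content of 53.2%. The *Sirt1* window holds neither, but has 6 GC boxes and 2 E-boxes, with 39 CpG and a GC content of 79.2%, above that of 98.4% of all promoters. The *Top1* window has 3 GC boxes and 1 E-box. Over the 32851 promoters in the table, 12.4% held the TATA box, 33.9% the CCAAT box, 32.7% the GC box and 6.02% the E-box, and the median GC content was 52.4%. These letters describe the windows and say nothing of the factors that bind them. The promoter table matched 6 of the 9 members.

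*Aire* was first followed by library. It had at least 1 UMI in 3143 of the 8453 cells. As deposited, the share of cells with *Aire* was 67.6% in the week 2 isotype control (exact binomial 95% interval 64.8% to 70.3%) and 66.2% in the week 10 isotype control (63.6% to 68.8%). After anti-RANKL it was 17.4% at week 2 (15.3% to 19.7%), 4.27% at week 4 (3.3% to 5.43%), 33.8% at week 6 (30.4% to 37.4%) and 57.4% at week 10 (54.6% to 60.2%). In the lineage tracing library, which was not treated with antibody, it was 21.6% (19.5% to 23.9%). The intervals cover counting error only. The lowest shares thus fell in the libraries taken 2 and 4 weeks after anti-RANKL, and the intervals of both isotype controls overlapped.

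The depth of the libraries differed, so the share expected after thinning every cell to 2000 UMIs was also computed. It was 39.1% and 44.2% in the week 2 and week 10 isotype controls. After anti-RANKL it was 6.83%, 2.24%, 20.4% and 38.2% at weeks 2, 4, 6 and 10, and it was 10.6% in the lineage tracing library. At 2000 UMIs the week 10 control lay above the week 2 control, and the order of the other libraries was as deposited. At 4000 UMIs week 10 after anti-RANKL (51.5%) also lay above the week 2 control (50.6%). The mean *Aire* level over all cells was 4.04 and 4.63 UMIs per 10000 in the week 2 and week 10 isotype controls (4.33 ± 0.42, SD, n = 2). It was 0.618, 0.146, 1.54 and 4.04 UMIs per 10000 at weeks 2, 4, 6 and 10 after anti-RANKL and 1.06 in the lineage tracing library, a span of 31.7-fold. The week 2, 4 and 6 values lay more than the control SD below the control mean, and the week 10 value lay within it.

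**Figure D1:**
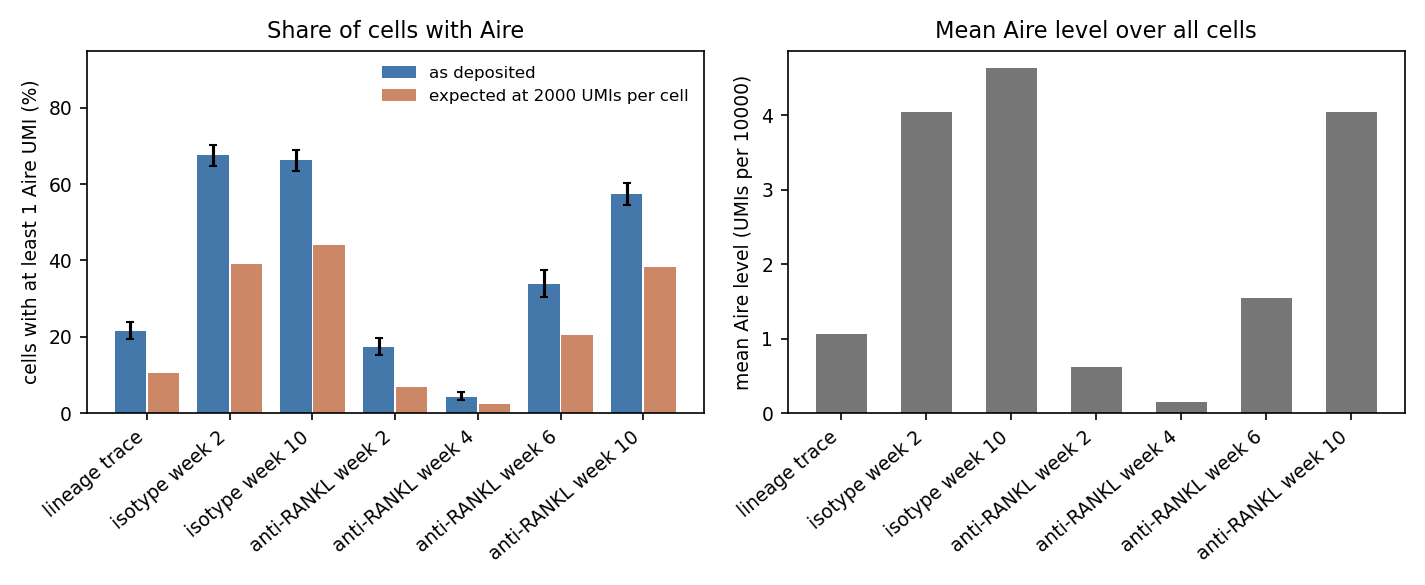
Left, percent of cells with at least 1 *Aire* UMI in each of the 7 libraries, as deposited (blue, bars with exact binomial 95% intervals) and expected at 2000 UMIs per cell (orange); right, mean *Aire* level over all cells in UMIs per 10000. The share as deposited runs from 4.27% at week 4 after anti-RANKL to 67.6% in the week 2 isotype control.

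A lower mean over all cells can come from fewer cells with *Aire* or from less *Aire* in each of them. These cannot be told apart by the mean among cells with *Aire*, since 1 UMI sets its lowest value at a height that depends on the depth of the cell. Among cells with *Aire*, the mean level was 5.97 and 6.99 UMIs per 10000 in the isotype controls, 3.55, 3.42, 4.55 and 7.04 at weeks 2, 4, 6 and 10 after anti-RANKL, and 4.88 in the lineage tracing library. It was lowest in the libraries where cells with *Aire* were scarcest. Within the class above 1.5, which the cutoff itself sets, the mean lay between 6.32 and 9.79 UMIs per 10000. This class held 463 and 562 cells in the week 2 and week 10 isotype controls, 64, 23, 110 and 460 cells at weeks 2, 4, 6 and 10 after anti-RANKL, and 123 in the lineage tracing library. *Aire* was found together with *Ccl21a* above 4 in 392 of 3491 *Ccl21a*-high cells, of which 42 had *Aire* above 1.5.

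The partners were then compared between the classes. For each library and class the level of a gene was taken as the mean over cells of its UMIs per 10000, which for a given set of cells does not depend on depth on average. The classes themselves differed in depth, as cells with *Aire* above 1.5 were deeper than those with *Aire* 0 in each library. Their median depths were 15186 against 8420 UMIs in the lineage tracing library and 21893 against 11303 in the week 2 isotype control. At week 6 after anti-RANKL they were 7274.5 against 3717. The log2 of this level plus 0.05 was fitted across all genes with limma, with the library as a block, and p-values were adjusted by the Benjamini-Hochberg method over all genes tested, with a threshold of 0.05. Each class of each library is 1 profile, so the p-values measure the spread between pools and not between cells. Over the 11287 genes tested, the median log2 difference was -0.17 for *Aire* above 1.5 against *Aire* 0, -0.057 for *Aire* up to 1.5 against *Aire* 0 and -0.11 between both *Aire* classes. It was -0.12 over the 11002 genes tested for *Aire* above 1.5 against *Ccl21a* above 4. The typical gene was thus slightly lower where *Aire* was high, and the differences of the members are to be read against these medians.

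*Sirt1* was higher and *Top1* lower where *Aire* was above 1.5, while *Hdac3* and *Chd4* were slightly lower and the other 4 partners did not pass the test. Of the 8 partners, 1 was called higher, where 19.6% of all genes tested were, and 3 were called lower, where 35.6% of all genes tested were. Of the 8, 4 were thus called, which is not above these shares, and what follows concerns single members. With the profiles of each library and class centred on their median, 2736 of the 5626 genes called were higher, in place of 2209 of 6225, and *Hdac3* and *Chd4* were no longer called.

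*Sirt1*, the deacetylase, had the largest difference of the partners. In cells with *Aire* above 1.5 its level was 1.47 and 1.96 UMIs per 10000 in the week 2 and week 10 isotype controls, 1.07, 1.44, 0.902 and 2.1 at weeks 2, 4, 6 and 10 after anti-RANKL, and 1.42 in the lineage tracing library. In cells with *Aire* 0 the same libraries gave 0.404 and 0.377, then 0.132, 0.182, 0.195 and 0.424, and 0.167 UMIs per 10000. The lowest value in *Aire*-high cells, that of week 6 after anti-RANKL, lay above the highest in cells with *Aire* 0, that of week 10. At week 4 a single cell held 10 of the 26 *Sirt1* UMIs in *Aire*-high cells, and without it the level was 1.04 UMIs per 10000. The log2 difference was 2.31 (SE 0.13, limma, adjusted p = 5.9e-10), with higher values in 7 of 7 libraries and ratios of the levels from 3.64 to 8.48.

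Cells with *Aire* up to 1.5 were intermediate. Their *Sirt1* level ran from 0.341 at week 2 after anti-RANKL to 1.11 at week 10, with a median of 0.517 UMIs per 10000 over the libraries. In each library this lay between the levels of the other classes. The log2 difference was 1.12 against *Aire* 0 (SE 0.13, limma, adjusted p = 2.4e-05) and 1.19 between both *Aire* classes (SE 0.13, limma, adjusted p = 7.6e-06), again with 7 of 7 libraries on 1 side. With a pseudocount of 0.5 the former was 0.56. These comparisons share their profiles and are not independent of each other.

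*Sirt1* was also measured in finer classes of *Aire*. A single *Aire* UMI gives a higher value in a shallow cell than in a deep one, so the lowest classes above 0 can hold deep cells only. Over the libraries with at least 10 cells in a class, the median *Sirt1* level was 0.195 UMIs per 10000 at *Aire* 0, 0.324 for *Aire* up to 0.5, 0.421 up to 1 and 0.846 up to 1.5. It was 1.55 for *Aire* above 1.5 and up to 2, 1.52 up to 2.5 and 1.53 above 2.5. The classes come from different sets of libraries, 4 for *Aire* up to 0.5, 6 for each class above 2 and 7 for the others, so the medians do not give the order within a library. In the 4 libraries with enough cells up to 0.5, *Sirt1* was higher there than at *Aire* 0 in the lineage tracing library and the week 2 isotype control, and lower in the week 10 isotype control (0.348 against 0.377) and at week 2 after anti-RANKL (0.0713 against 0.132). Within the 6 libraries that have both, *Sirt1* was higher above 2.5 than between 1.5 and 2 in 5 and lower in 1, the week 2 isotype control (1.14 against 1.7 UMIs per 10000). The difference was widest at week 6 after anti-RANKL, at 1.44 against 0.612 UMIs per 10000 from 22 and 56 cells, and none of these differences was tested. For *Top1* the medians of these classes were 2, 1.86, 1.76, 1.59, 1.52, 1.19 and 1.24 UMIs per 10000 from *Aire* 0 to above 2.5.

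In *Ccl21a*-high cells, *Sirt1* was at 0.121 to 0.232 UMIs per 10000 in every library, with a median of 0.187. Against these cells, leaving out those that carried both, the log2 difference of *Aire*-high cells was 2.87 (SE 0.14, limma, adjusted p = 3.7e-08), higher in 7 of 7 libraries. At an equal depth of 2000 UMIs per cell, *Sirt1* was expected in 14.7% to 28.3% of the cells with *Aire* above 1.5 and in 2.34% to 4.01% of the *Ccl21a*-high cells, without overlap between libraries.

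*Sirt1* was also measured in the other cells without *Aire*. In cells with at least 3 of 6 cTEC markers and *Aire* 0 (788 cells), *Sirt1* was at 0.148 ± 0.066 UMIs per 10000 (SD, n = 7 libraries), and in cells with at least 3 of 6 tuft markers (352 cells) at 0.281 ± 0.096 (SD, n = 7). Cells with *Aire* 0 that were neither *Ccl21a*-high nor carried those markers (1032 cells) had 0.475 ± 0.299 (SD, n = 7), from 0.118 to 0.906. This remainder was the class without *Aire* that varied the most between libraries, and it lay below the *Aire*-high cells of the same libraries on average (1.48 ± 0.43, SD, n = 7). Cells that carried T-cell markers were left out of these values.

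**Figure D2:**
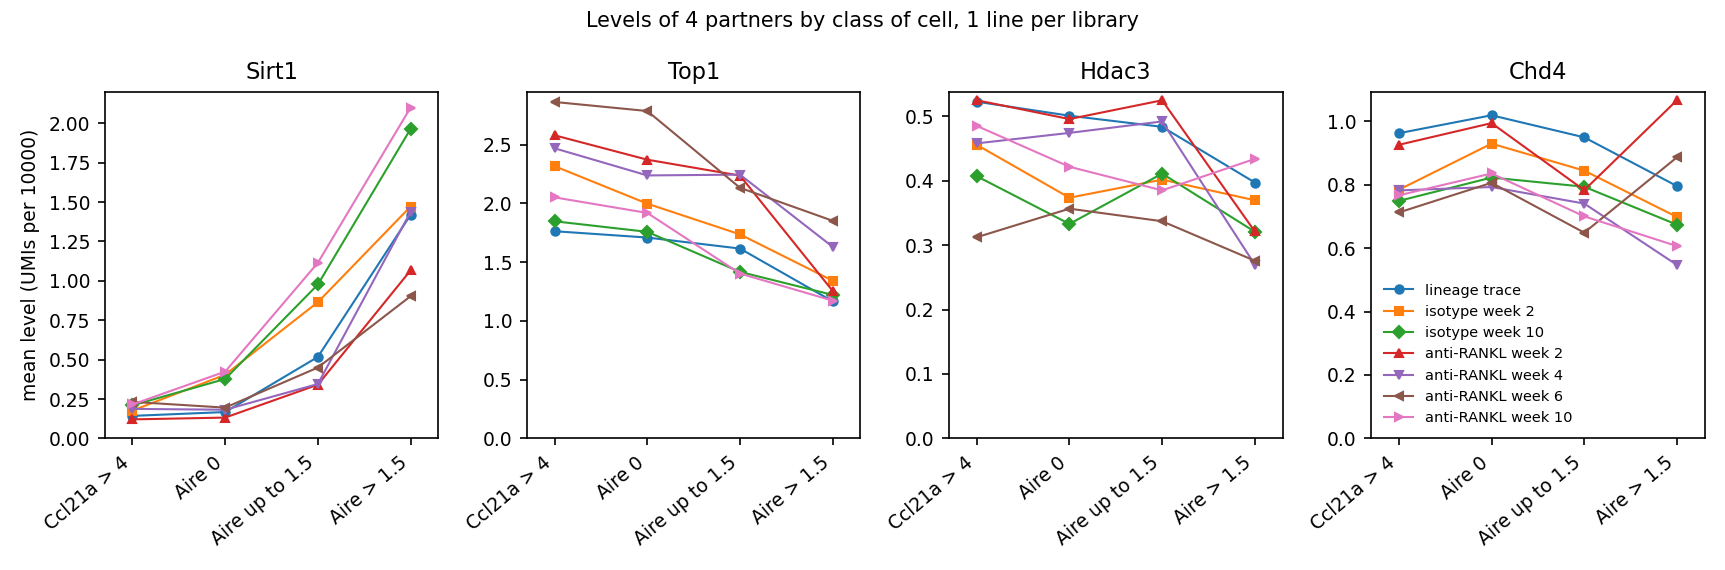
Mean level, in UMIs per 10000, of *Sirt1*, *Top1*, *Hdac3* and *Chd4* in cells with *Ccl21a* above 4, *Aire* 0, *Aire* above 0 and up to 1.5, and *Aire* above 1.5, with 1 line per library (7 libraries). *Sirt1* rises and *Top1* falls from *Aire* 0 to *Aire* above 1.5 in 7 of 7 libraries, while the lines of *Hdac3* and *Chd4* cross.

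The share of cells in the cell cycle also differed between the classes. Cells with at least 2 of 8 cycling genes made up 2.41% to 9.09% of the cells with *Aire* 0, 5% to 32.5% of those with *Aire* up to 1.5 and 4.35% to 34.8% of those with *Aire* above 1.5. Without these cells the log2 difference between *Aire* above 1.5 and *Aire* 0 was 2.42 for *Sirt1* and -0.67 for *Top1*, as large as with them. The summed level of the 12 T-cell markers ran from 0.64 to 1.68 UMIs per 10000 in cells with *Aire* 0 and from 1.05 to 2.29 in those with *Aire* above 1.5; 7 of the 12 were at 0 in the latter at week 4 after anti-RANKL and none in the latter class of the other libraries. Leaving out the T-cell-marked cells changed no call of a partner.

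Over all cells of a library, the *Sirt1* level ranked the libraries much as *Aire* did. It was 0.957 and 1.21 UMIs per 10000 in the week 2 and week 10 isotype controls (1.08 ± 0.18, SD, n = 2), 0.206, 0.206, 0.35 and 1.2 at weeks 2, 4, 6 and 10 after anti-RANKL and 0.323 in the lineage tracing library. Weeks 2 and 4 after anti-RANKL could not be told apart on this scale. Cells with *Aire* held 90.9% and 93.2% of the *Sirt1* UMIs of the isotype controls, while holding 78.8% and 76.3% of all their UMIs. At week 4 after anti-RANKL they held 26.2% of the *Sirt1* UMIs and 6.79% of all UMIs.

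*Top1*, the topoisomerase, went the other way. In cells with *Aire* 0, *Top1* was at 2 and 1.76 UMIs per 10000 in the week 2 and week 10 isotype controls, 2.37, 2.24, 2.79 and 1.92 at weeks 2, 4, 6 and 10 after anti-RANKL and 1.71 in the lineage tracing library. In cells with *Aire* above 1.5 the same libraries gave 1.34 and 1.22, then 1.26, 1.63, 1.85 and 1.17, and 1.17 UMIs per 10000. It was lower in the *Aire*-high cells of 7 of 7 libraries, although the ranges of both classes overlapped because week 6 was high in both. The log2 difference was -0.60 (SE 0.074, limma, adjusted p = 3.2e-06).

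Between *Aire* above 1.5 and up to 1.5, *Top1* fell by 0.39 on the log2 scale (SE 0.074, limma, adjusted p = 0.00082), again in 7 of 7 libraries, although without the library block the adjusted p was 0.053. Between *Aire* up to 1.5 and *Aire* 0 the difference was -0.21 (adjusted p = 0.057, limma), lower in 6 of 7 libraries and short of the threshold. It passed without week 2 (adjusted p = 0.033) or week 4 (adjusted p = 0.029) after anti-RANKL. Against *Ccl21a*-high cells, with those that carried both left out, *Top1* fell by 0.84 (SE 0.098, limma, adjusted p = 2.5e-05) in 7 of 7 libraries. Over all *Ccl21a*-high cells its level was 1.76 to 2.86 UMIs per 10000, with a median of 2.32.

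*Hdac3* and *Chd4*, the catalytic subunits of corepressor complexes, differed less. *Hdac3* was at 0.333 to 0.501 UMIs per 10000 in cells with *Aire* 0 (median 0.422) and at 0.27 to 0.434 in those with *Aire* above 1.5 (median 0.321). The log2 difference was -0.27 (SE 0.10, limma, adjusted p = 0.036), lower in 6 of 7 libraries with week 10 after anti-RANKL as the exception. Against *Aire* up to 1.5 it was -0.31 (SE 0.10, limma, adjusted p = 0.034) and against *Ccl21a* above 4 also -0.31 (SE 0.11, limma, adjusted p = 0.035). With centred profiles the adjusted p-values of these 3 *Hdac3* differences were 0.34, 0.17 and 0.06. Over the 18 alternatives these calls held in 9, 8 and 9. The first was lost with summed UMIs or at least 30 cells, and it and the second were lost without the replicate block. The first was also lost without the lineage tracing library (0.079) or without week 2 (0.11), week 4 (0.082) or week 6 (0.069) after anti-RANKL. The second was lost without any of these or the week 10 isotype control (0.055 to 0.12), and the third without any library but that of week 6 (0.057 to 0.10).

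*Chd4* was at 0.793 to 1.02 UMIs per 10000 in cells with *Aire* 0 (median 0.835) and at 0.547 to 1.07 in those with *Aire* above 1.5 (median 0.698). The highest value in *Aire*-high cells was that of week 2 after anti-RANKL, which with week 6 was higher than its own cells with *Aire* 0. A single cell held 64 of the 132 *Chd4* UMIs at week 2, and without it the level was 0.617 UMIs per 10000, below that of the cells with *Aire* 0 (0.994). The log2 difference was -0.24 (SE 0.098, limma, adjusted p = 0.044), but the call held in 6 of 18 alternatives and was lost with centred profiles (adjusted p = 0.38). It held without week 2 or week 6 after anti-RANKL and was lost without any other single library (adjusted p = 0.092 to 0.13). *Chd4* was not called in the other comparisons, where its log2 difference was -0.18 for *Aire* up to 1.5 against *Aire* 0, -0.067 between both *Aire* classes and -0.21 against *Ccl21a* above 4. Its highest level lay elsewhere, in the tuft-marked cells (1.49 ± 0.44 UMIs per 10000, SD, n = 7), a difference that was not tested.

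*Parp1*, *Prkdc*, *Prmt5* and *Mbd1* were scarce, and their log2 differences between *Aire* above 1.5 and *Aire* 0 were not distinguishable from 0. *Parp1* was at 0.127 to 0.363 UMIs per 10000 in cells with *Aire* 0 and 0.111 to 0.301 in those with *Aire* above 1.5, a log2 difference of -0.058 (95% interval -0.29 to 0.17). Single cells weighed on its *Aire* 0 levels, as 1 cell held 41 of 123 UMIs in the week 2 isotype control (0.26 UMIs per 10000, 0.167 without it), and another 21 of 227 in the lineage tracing library (0.233, or 0.197 without it, against 0.222 in *Aire*-high cells). *Prmt5* was at 0.162 to 0.262 and 0.111 to 0.279 UMIs per 10000, a difference of 0.12 (-0.17 to 0.42). *Mbd1* was at 0.0845 to 0.187 and 0.0623 to 0.178 UMIs per 10000, a difference of -0.0079 (-0.36 to 0.34). *Prkdc*, with the fewest UMIs, was at 0.0122 to 0.0651 and 0 to 0.111 UMIs per 10000, a difference of 0.067 (-0.41 to 0.54), and the 23 *Aire*-high cells of week 4 after anti-RANKL had no *Prkdc* UMI. In total 131 *Prkdc* UMIs were counted in the 1793 cells with *Aire* above 1.5 and no T-cell marking, so that changes within these intervals were not detectable at this depth.

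**Figure D3:**
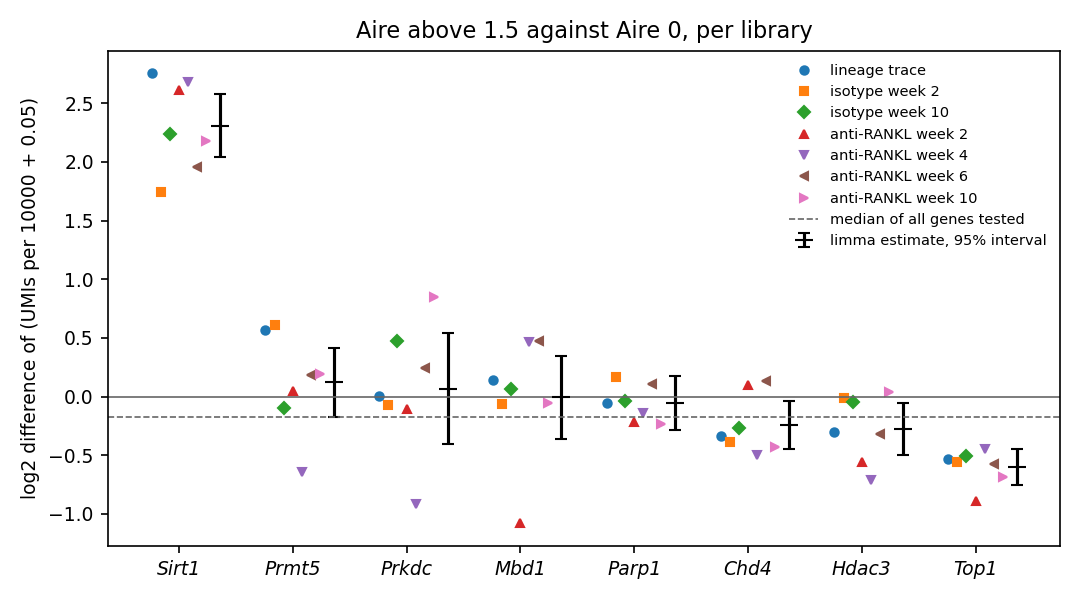
Log2 difference of (UMIs per 10000 + 0.05) between cells with *Aire* above 1.5 and *Aire* 0 for the 8 partners, with 1 coloured point per library and the limma estimate with its 95% interval in black; the dashed line is the median of all genes tested (-0.17). All points of *Sirt1* lie above 0 and all of *Top1* below the dashed line.

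In the other comparisons the counts of partners were as follows. Between *Aire* up to 1.5 and *Aire* 0, *Sirt1* alone was called, against 8.77% of all genes called higher and 9.85% called lower. Between *Aire* above 1.5 and up to 1.5, *Sirt1* was called higher and *Top1* and *Hdac3* lower, against 10.9% and 20.4% of all genes. Between *Aire* above 1.5 and *Ccl21a* above 4, the same 3 genes were called in the same directions, against 24% and 30.8% of all genes. *Parp1* was at a median of 0.171 UMIs per 10000 in all *Ccl21a*-high cells and 0.232 in all *Aire*-high cells. Its log2 difference, fitted without the cells that carried both, was 0.27 and did not pass (95% interval -0.11 to 0.64, adjusted p = 0.21, limma), although it did in 2 of 18 alternatives.

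Within the cells with *Aire*, the level of each partner was set against that of *Aire* by Spearman's rho in every library, from 63 cells at week 4 after anti-RANKL to 842 in the week 10 isotype control. These are descriptions over cells that share a pool, a library and differences in depth. *Sirt1* had rho of 0.24 and 0.27 in the week 2 and week 10 isotype controls, 0.41, 0.34, 0.17 and 0.22 at weeks 2, 4, 6 and 10 after anti-RANKL and 0.36 in the lineage tracing library. Its rho was above that of 96.4% or more of the genes in every library. After thinning every cell to 2000 UMIs, its rho ran from 0.062 to 0.15 (median 0.12) and was above that of 94.1% or more of the genes.

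*Top1* had a negative rho in every library, from -0.31 at week 2 after anti-RANKL to -0.11 in the week 10 isotype control, with a median of -0.18, and from -0.084 to -0.032 at 2000 UMIs per cell. *Hdac3* was negative in every library as well, from -0.28 to -0.036, but in the median library its rho was above that of 37.8% of the genes. *Mbd1* was negative in every library as deposited, from -0.14 to -0.0052, but above 0 in 1 of 7 at 2000 UMIs, in 3 of 7 at 4000 UMIs and in 2 of 7 without cycling cells, and as deposited its rho was, in the median library, above that of 57.9% of the genes. The signs of *Prkdc*, *Chd4*, *Prmt5* and *Parp1* differed between libraries. The median rho of all genes was itself negative in each library, from -0.052 to -0.018.

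**Figure D4:**
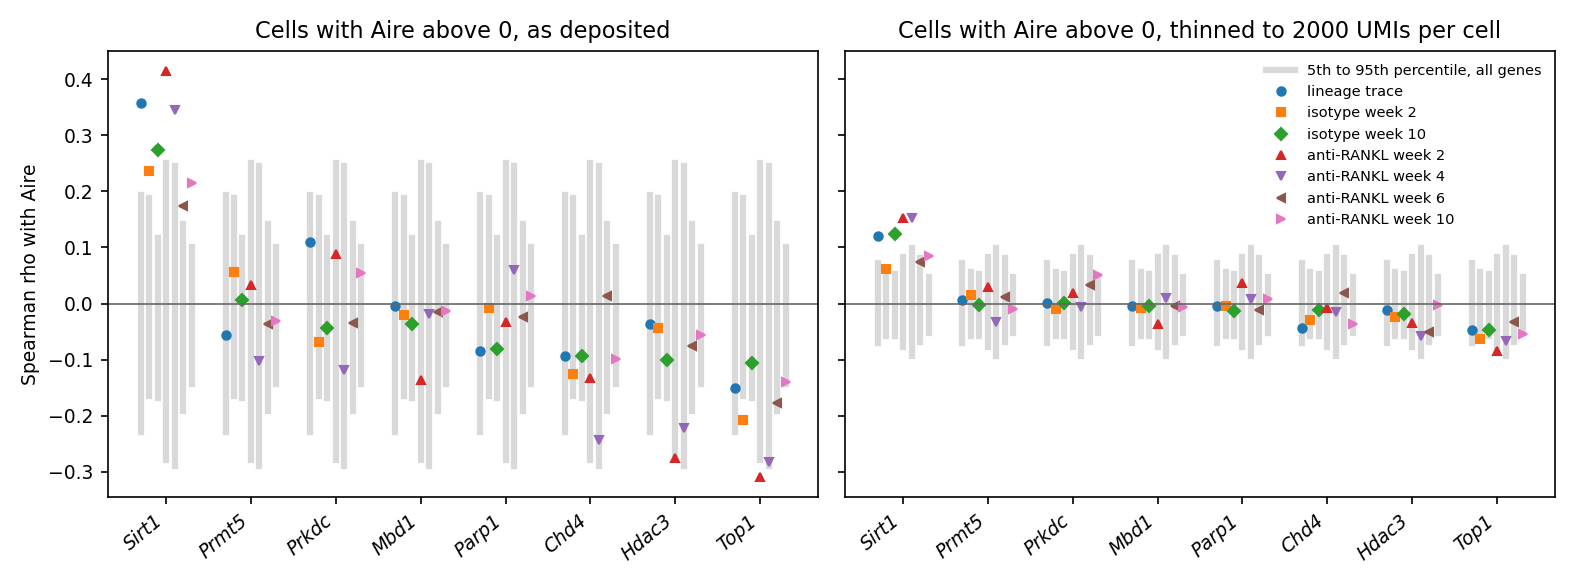
Spearman's rho of the 8 partners with *Aire* among cells with *Aire* above 0, as deposited (left) and after thinning to 2000 UMIs per cell (right), with 1 point per library and grey bars from the 5th to the 95th percentile of all genes in that library. *Sirt1* lies above the bar in 7 of 7 libraries as deposited, from 0.17 to 0.41, and in 6 of 7 after thinning, with week 6 after anti-RANKL below the bar's upper end (0.074 against 0.082); the other partners lie within or near the bars.

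The genes whose pattern over all cells was most like that of *Aire* were named by their median Spearman's rho over the 7 libraries, at 2000 UMIs per cell and among 3342 genes detected in at least 5% of the cells of each library. They were *Srgn* (0.44), *Cyba* (0.39), *S100a14* (0.37), *Ubd* (0.36), *Cd74* (0.32), *H2-Aa* (0.30), *Il4i1* (0.29) and *Fgf21* (0.29). *Srgn* encodes the proteoglycan serglycin, *Cyba* a subunit of NADPH oxidase and *Ubd* a ubiquitin-like modifier, while *Cd74* and *H2-Aa* belong to antigen presentation by MHC class II. Of the partners, *Hdac3*, *Top1* and *Chd4* reached the detection limit and the others did not. The median rho of *Sirt1* was 0.20 and would have ranked 35 among these genes. It was 0.028 for *Prkdc* and 0.0019 for *Hdac3*, against a median of -0.015 over all genes, and *Top1* was the lowest of the partners at -0.058.

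The lineage tracing library allowed *Aire* to be set beside ZsGreen, which marks cells that had *Aire* while tamoxifen was given. It is 1 library, so the intervals below are exact Poisson 95% intervals over pooled counts and cover counting error only. *Aire* and ZsGreen were found together in 234 cells, *Aire* alone in 66, ZsGreen alone in 444 and neither in 643. *Aire* was at 5.34 UMIs per 10000 (5.12 to 5.57) in the cells with both and at 2.75 (2.42 to 3.12) in those with *Aire* alone. The cells with both thus had the higher *Aire* level.

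*Sirt1* was at 0.863 UMIs per 10000 (0.775 to 0.959) in the cells with both and at 0.239 (0.148 to 0.365) in those with *Aire* alone. As a mean over cells, the measure used above, these were 1.01 and 0.453 UMIs per 10000, so that pooling widened the gap. The pooled level was at 0.161 (0.128 to 0.199) in cells with ZsGreen alone and at 0.14 (0.111 to 0.175) in cells with neither. These last intervals overlapped, but *Ccl21a* was above 4 in 298 of the 444 cells with ZsGreen alone and in 518 of the 643 with neither. At *Ccl21a* up to 4, cells with ZsGreen alone had 0.271 (0.197 to 0.364) and cells with neither 0.172 (0.1 to 0.276). At *Ccl21a* above 4 the levels were 0.109 (0.0772 to 0.15) and 0.133 (0.102 to 0.171). The intervals overlapped within each *Ccl21a* class. In the 55 tuft-marked cells with ZsGreen alone the *Sirt1* level was 0.272 (0.166 to 0.42).

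*Top1* was at 1.32 UMIs per 10000 (1.21 to 1.44) in the cells with both, 1.75 (1.49 to 2.05) in those with *Aire* alone, 1.53 (1.42 to 1.64) in those with ZsGreen alone and 1.79 (1.68 to 1.9) in those with neither. Of the cells with neither, those with *Ccl21a* up to 4 had 1.42 (1.19 to 1.67), which overlapped the cells with both. Those with *Ccl21a* above 4 had 1.86 (1.74 to 1.99), which did not. With ZsGreen alone these *Ccl21a* classes had 1.62 (1.43 to 1.83) and 1.48 (1.36 to 1.62), each overlapping the cells with both. *Prmt5* was at 0.269 (0.221 to 0.325) in the cells with both and at 0.174 (0.14 to 0.215) in those with ZsGreen alone, and *Chd4* at 0.788 (0.704 to 0.88) and 0.979 (0.895 to 1.07). In cells with neither, *Prmt5* was at 0.184 (0.15 to 0.223) and *Chd4* at 0.952 (0.873 to 1.04), each overlapping the cells with both. With ZsGreen alone and *Ccl21a* above 4 they were at 0.192 (0.149 to 0.244) and 0.905 (0.807 to 1.01), which also overlapped. At *Ccl21a* up to 4 they were at 0.136 (0.0849 to 0.205) and 1.14 (0.981 to 1.32), which did not. The intervals of *Prkdc*, *Parp1*, *Mbd1* and *Hdac3* in the 4 classes of *Aire* and ZsGreen overlapped. Within the cells with ZsGreen alone, *Parp1* was at 0.425 (0.331 to 0.538) at *Ccl21a* up to 4 and at 0.155 (0.117 to 0.202) above 4. A single cell held 21 of the 69 *Parp1* UMIs at *Ccl21a* up to 4, and without it the pooled level was 0.297.

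**Figure D5:**
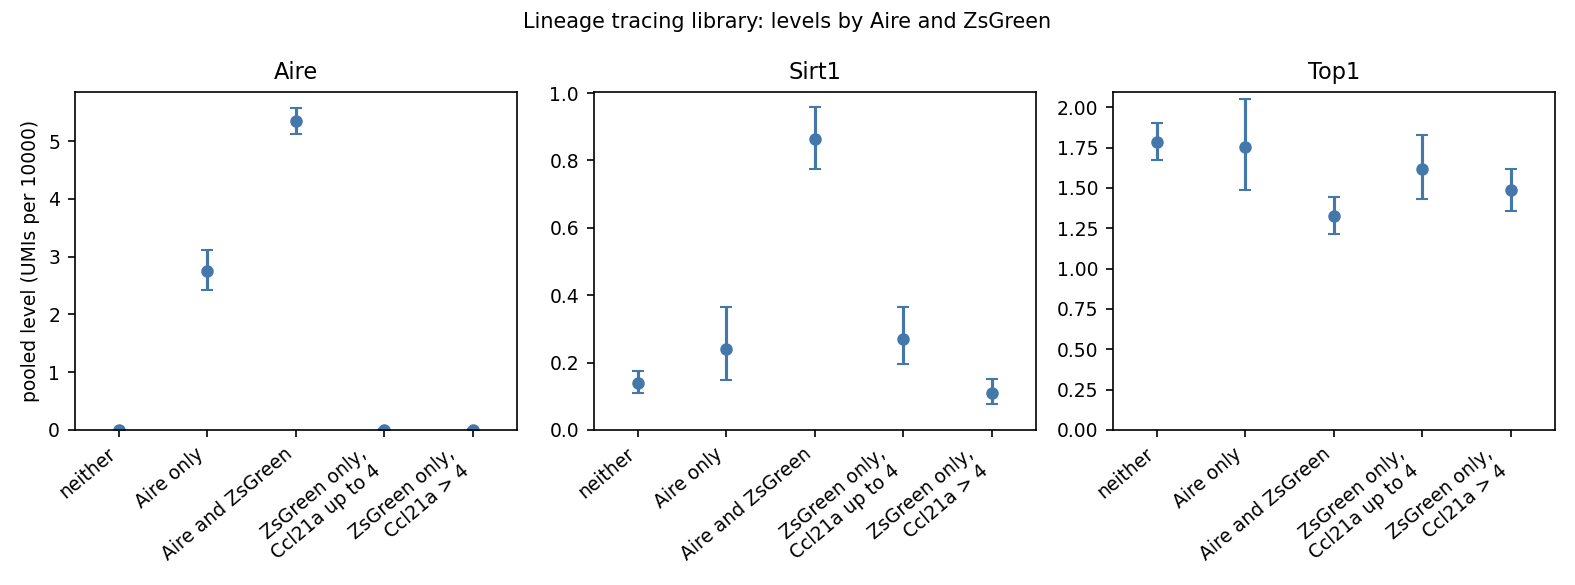
Pooled level, in UMIs per 10000, of *Aire*, *Sirt1* and *Top1* in the lineage tracing library by the presence of *Aire* and ZsGreen UMIs, with exact Poisson 95% intervals; cells with ZsGreen alone are split by *Ccl21a*. Pooled *Sirt1* is at 0.863 in cells with both and between 0.109 and 0.271 in the other classes plotted; its mean over cells with *Aire* alone is higher than the pooled value, at 0.453.

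The remaining reported partners of Aire and of these members' complexes were tested as fixed lists of 49 genes. Between *Aire* above 1.5 and *Aire* 0, 3 of the 49 were called higher and 29 lower, with a median log2 difference of -0.34 against -0.17 for all genes. With centred profiles 4 were called higher and 21 lower, and without cycling cells 2 and 30. For all genes in the main fit the shares called were 19.6% higher and 35.6% lower. With centred profiles 5626 of the 11287 genes tested were called, of which 2736 were higher. The share of all genes without cycling cells is not given here, so the counts of that fit have no background beside them. Between *Aire* up to 1.5 and *Aire* 0, 2 of the 49 were called higher and 3 lower, where the shares of all genes were 8.77% and 9.85%. Between both *Aire* classes none was higher and 16 were lower (10.9% and 20.4% of all genes). Against *Ccl21a* above 4, 2 were higher and 28 lower (24% and 30.8% of all genes).

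*Top2a*, the topoisomerase of dividing cells, was higher by a log2 difference of 1.38 (SE 0.26, limma, adjusted p = 0.00024, in 6 of 7 libraries). It is also 1 of the 8 cycling genes, and without cycling cells its difference was 0.70. *Rad21*, a cohesin subunit, was higher by 0.49 (SE 0.13, limma, adjusted p = 0.0051, in 6 of 7 libraries). *H2afx*, the histone variant marked at DNA breaks, was higher by 0.47 (SE 0.17, limma, adjusted p = 0.024, in 5 of 7 libraries), which was lost without cycling cells (-0.073, adjusted p = 0.6, limma).

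*Mbd2*, which encodes a reader of methylated CpG in NuRD, was lower, at 0.0612 against 0.244 UMIs per 10000 on average, a log2 difference of -1.50 (SE 0.24, limma, adjusted p = 5e-05, in 7 of 7 libraries). *Xrcc5*, the Ku80 subunit that brings DNA-dependent protein kinase to DNA ends, was lower by a difference of -0.99 (SE 0.22, limma, adjusted p = 0.0012, in 6 of 7 libraries), and *Xrcc6*, its Ku70 partner, differed by -0.023 and did not pass.

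The groups are to be read against the 19.6% of all genes called higher, the 35.6% called lower and the median of -0.17, all from the main fit. Their counts with centred profiles are to be read against the 5626 of 11287 genes called with that setting, of which 2736 were higher. By group, 11 of 13 genes of the NuRD and Hdac3 complexes were called lower and none higher, among them *Gatad2a* (-0.70), *Mta1* (-0.55) and *Ncor1* (-0.42), and the median of the list was -0.46. With centred profiles 10 were lower and *Hdac2* was higher. The exceptions *Hdac1* and *Hdac2* differed by -0.019 and 0.21 and did not pass. Of 10 chromatin and cohesin genes, 7 were called lower and *Rad21* higher (median -0.40). Of 5 elongation genes, 3 were lower, including *Cdk9* (-0.57), the kinase of P-TEFb, and *Polr2a* (-0.59), the largest subunit of RNA polymerase II (median -0.57). Of 7 genes of DNA breaks and topoisomerases, 2 were higher and 2 lower (median -0.17). Of 6 RNA-processing genes, 3 were lower (median -0.31), of 3 genes of the Prmt5 complex, 2 were lower (median -0.31), of 3 enzymes and ligases that act on Aire, 1 was lower (median -0.26), and neither of the 2 nuclear transport genes was called (median -0.068). With centred profiles the counts of lower genes were 5 for chromatin and cohesin, 3 for elongation, 1 for DNA breaks, 1 for the Prmt5 complex, 1 for the enzymes and ligases and 0 for RNA processing, while those called higher were 1 for chromatin and cohesin and 2 for DNA breaks.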

How the data were processed

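The 7 libraries were droplet-based scRNA-seq, each of 3 pooled thymi. Per the labels and the methods of the study, the authors aligned reads to mm10 with Cell Ranger 2.2.0 and filtered and normalized cells in Seurat 2.3.4; the reporter sequence was added to the reference of the lineage tracing library, whose table lists a GFP row that was read as ZsGreen. The deposited values are natural log values, ln(1 + UMIs per 10000), and in each cell the UMIs so scaled add up to 10000, where the methods name another scale factor. Whole UMIs were recovered in every cell (tolerance 0.001), so depth is known. The 10760 cell columns of 2 combined tables were not used. No doublet caller was run; cells that carry T-cell markers were left out as an alternative.

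Profiles of at least 10 cells per class and library were fitted with limma 3.58.1 in R 4.3.3 (trend, genes with a mean of at least 0.05 UMIs per 10000), which was tested on simulated data. The simulation changed a small set of genes with means above this filter. It therefore does not cover a shift of many genes or a member as scarce as *Prkdc*. The library was a block because the classes are cells of the same pool. No count model was fitted. Thinning to 2000 UMIs left out 177 cells and to 4000 left out 1283; correlations at equal depth were averaged over 20 thinnings. Cutoffs of 6 of 12 T-cell markers, 2 of 8 cycling genes and 3 of 6 cTEC or tuft markers defined marked cells. Other steps used numpy 2.4.6, pandas 2.3.3, scipy 1.17.1 and matplotlib 3.10.9 under Python 3.11.15.

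The members, lists and cutoffs were chosen with earlier results of these data known. Named genes were all members, up to 3 called genes in each direction from the lists of other partners and the 8 genes most like *Aire*; other list members named by group were picked with their values in view. A single result that this rule would name is not reported here. Alternatives were the pseudocount (0.01 or 0.5), the filter, each library left out, summed UMIs, classes at 4000 UMIs, no cycling or T-cell-marked cells, at least 30 cells, weights, centred profiles and no block. The finer *Aire* classes, the levels without the cell of most UMIs, the split of T-cell-marked cells and the alternatives for the other partners were added after the data had been seen.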

Additional observations from a re-analysis of the deposited data

How the results depend on the processing

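*Sirt1* and *Top1* kept their direction in all 18 alternatives of the 4 comparisons. *Sirt1* was called in each, and *Top1* in each for *Aire* above 1.5 against *Aire* 0 and against *Ccl21a* above 4, with adjusted p from 7.6e-08 to 0.0014 in the former. Of the 8 partners, 4 were called between *Aire* above 1.5 and *Aire* 0, but 2 with summed UMIs, with at least 30 cells, with centred profiles or without the replicate block, and 2 to 3 when a library was left out. The 2 were *Sirt1* and *Top1* without the lineage tracing library or week 4 after anti-RANKL. Between *Aire* up to 1.5 and *Aire* 0, 1 was called, but 2 (*Top1* in addition) with classes set at 4000 UMIs, with at least 30 cells or with weights, and 1 to 2 when a library was left out (2 without week 2 or week 4 after anti-RANKL). Between both *Aire* classes, 3 were called, 1 without the replicate block and 2 to 3 when a library was left out, and against *Ccl21a* above 4 the latter was 2 to 3 as well. Over all genes, the block raised the calls from 646 to 2102 between *Aire* up to 1.5 and *Aire* 0 and from 2085 to 3526 between both *Aire* classes; the former count was 1385 without cycling cells, 4010 with weights and 1217 to 2823 when a library was left out. With centred profiles, 1507 of 3029 calls between both *Aire* classes were higher, against 1228 of 3526, and 1179 of 2050 between *Aire* up to 1.5 and *Aire* 0, against 990 of 2102. The share of cells with *Aire* moved with depth: expected at 2000 UMIs it was 39.1% and 44.2% in the isotype controls, 10.6% in the library of traced cells and 6.83%, 2.24%, 20.4% and 38.2% at weeks 2, 4, 6 and 10 after anti-RANKL, and at 4000 UMIs 15.1% when traced, 50.6% and 57.3% in the isotype controls and 10.3%, 4.37%, 37.2% and 51.5% at weeks 2, 4, 6 and 10 after anti-RANKL, where cells under 4000 UMIs (517 of 1475 at week 4 and 322 of 730 at week 6) were left out. With a pseudocount of 0.5 the *Sirt1* differences were 1.35 against *Aire* 0 and 1.59 against *Ccl21a* above 4 for *Aire* above 1.5, and 0.56 for *Aire* up to 1.5 against *Aire* 0.

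Differences that were not called changed sign around 0. With *Aire* above 1.5 against *Aire* 0, *Prkdc* went to -0.0044 at a pseudocount of 0.01 and -0.037 with classes at 4000 UMIs, *Parp1* to 0.069 with summed UMIs and 0.072 with centred profiles, and *Mbd1* to 0.12 with centred profiles and 0.027 without cycling cells. Between both *Aire* classes, *Prkdc* went to 0.0044 at a pseudocount of 0.5, 0.19 with at least 30 cells, 0.17 with weights and 0.071 with centred profiles, *Parp1* to -0.13 with classes at 4000 UMIs, and *Chd4* and *Mbd1* to 0.013 and 0.0089 with centred profiles. With *Aire* up to 1.5 against *Aire* 0, *Hdac3* went to -0.055 and *Prmt5* to 0.057 with classes at 4000 UMIs, and *Prmt5* to 0.11 and *Parp1* to 0.0091 with summed UMIs. Against *Ccl21a* above 4, *Prkdc* went to 0.042 with at least 30 cells and 0.10 with weights. When a library was left out, *Mbd1* ran from -0.088 to 0.17 (*Aire* above 1.5 against 0), -0.0042 to 0.16 (up to 1.5 against 0), -0.16 to 0.067 (between both *Aire* classes) and -0.15 to 0.081 (against *Ccl21a* above 4). *Prkdc* ran from -0.036 to 0.19, -0.092 to 0.23 and -0.21 to 0.042 in the last 3 of these, *Hdac3* from -0.00296 to 0.061 (up to 1.5 against 0) and *Parp1* from -0.0018 to 0.12 (between both *Aire* classes). The cause was not tested for any of these. *Prkdc* could not be fitted in 3 alternatives, where its mean fell below the filter.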
